A study of Mus musculus with 2 samples.

Results

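Aminoacyl-tRNA synthetases join each amino acid to its own transfer RNA, the step that fixes the genetic code before translation. Most amino acids are served by separate nuclear genes, 1 for the enzyme of the cytosol and 1 for the enzyme imported into mitochondria, where it charges the tRNAs that translate the respiratory chain subunits encoded by mitochondrial DNA. YY1 is a DNA-binding protein with zinc fingers that raises transcription at some targets and lowers it at others. It is known for binding near the start sites of genes of mitochondrial function and of protein synthesis, at a sequence with the core ATGGC.

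The genes described are 36 synthetase genes out of 21887 protein-coding genes, listed by name. The list was drawn up with earlier results of these data known. They comprise 16 mitochondrial forms, with symbols ending in ars2, and 20 cytosolic forms, among which Gars (glycine) and Kars (lysine) serve both compartments. A gene was counted as having a peak when a peak summit lay inside it or within 1 kb of either of its ends. Peaks came from mature adipocytes, freed by collagenase from the inguinal subcutaneous fat of male wild-type C57 mice aged 8 to 10 weeks, after 7 days of cold stress or at room temperature. Each condition had 1 library, made by CUT&Tag per the labels' protocols although the titles call it ChIP-seq. In CUT&Tag a transposase tethered to the anti-YY1 antibody cuts the DNA beside the bound protein, and open chromatin is also tagged to some extent. The sources used here do not say how many animals were pooled. In the peak names a number follows YY1, which is 4 for the cold list and 30 for the room temperature list. If these were housing temperatures, the baseline would have been warmer than its label says, which cannot be told apart from these files.

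The cold list held 1259 peaks and the room temperature list 165. The deposited lists give no read counts, so the fragments over a summit, called the pileup, were calculated back from that peak's fold enrichment and p-value. The median pileup was 20 fragments after cold (quartiles 15 and 29) and 13 at room temperature (10 and 17), and the lowest listed pileup was 6 in both. Judged by their lowest backgrounds, the cold library was 1.05 times as deep as the other. Pileups are given with exact 95% Poisson intervals, which cover counting error only. With 1 library per condition, no difference between conditions has a replicate check. Adipocyte identity could not be checked from these data, since a peak at a gene does not measure its expression. Of 8 adipocyte marker genes, 8 macrophage markers and 8 preadipocyte or fibroblast markers, 0 had a peak in either list, and of 8 endothelial markers Pecam1 had a cold peak.

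After cold stress, YY1 was listed at 7 of the 36 synthetase genes (19.4%), where 6.42% of all protein-coding genes had a peak. These were the mitochondrial genes Aars2, Fars2, Lars2, Sars2 and Yars2 and the cytosolic genes Farsa and Nars. At room temperature 1 of the 36 had a peak (2.78%), Aars2, where 0.864% of all protein-coding genes did. It was the 1 member found in both lists, as 0.85% of protein-coding genes were. Per compartment, 5 of 16 mitochondrial genes (31.2%) and 2 of 20 cytosolic genes (10%) had a cold peak. With Gars and Kars, which had no peak, moved to the mitochondrial side, the counts were 5 of 18 (27.8%) and 2 of 18 (11.1%). The difference between the compartments was not tested, since the list is small and was drawn up with earlier results of these data known.

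**Figure D1:**
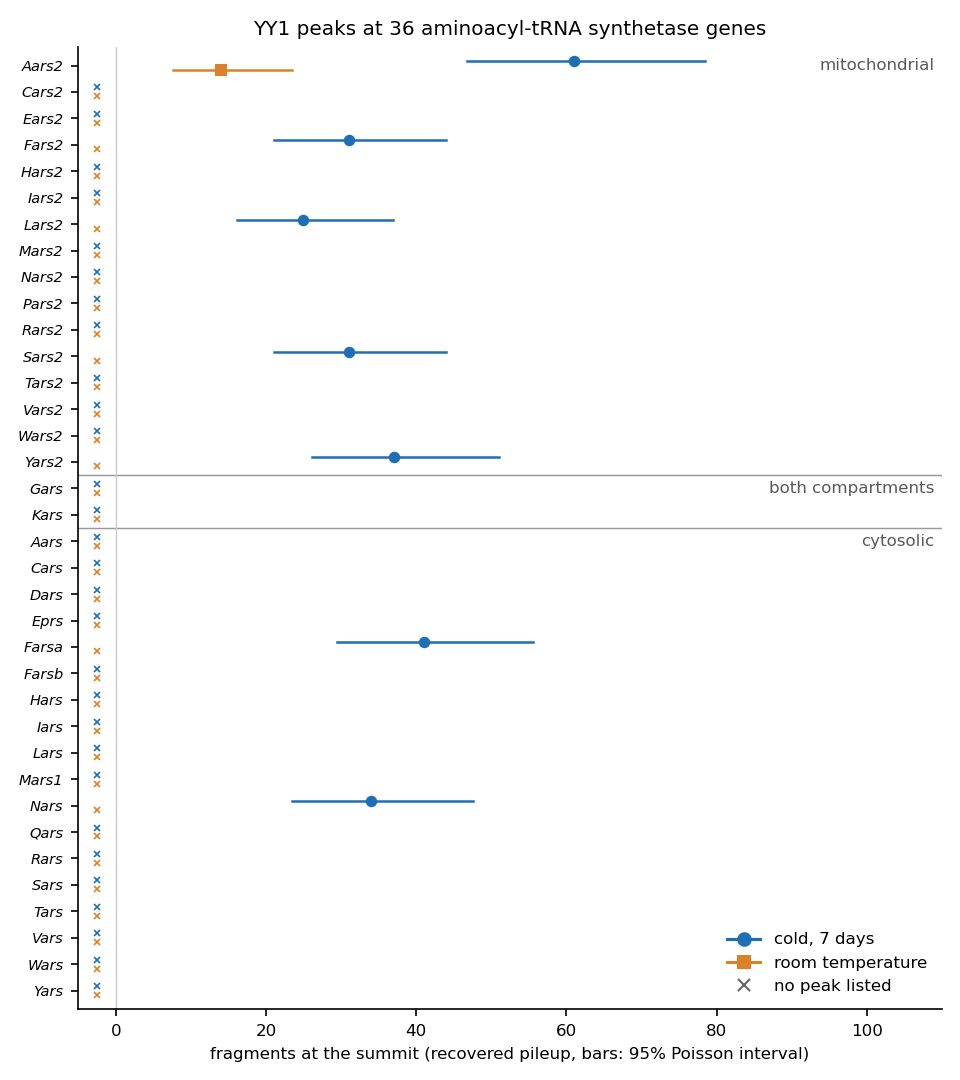
Fragments at the YY1 summit (recovered pileup, horizontal axis) for each of the 36 synthetase genes (rows), grouped by compartment, after cold (circles) and at room temperature (squares). Bars are 95% Poisson intervals and crosses stand for genes with no listed peak, which is not a measured 0; the cold peaks run from 25 fragments at Lars2 to 61 at Aars2, and Aars2 alone has a room temperature value, 14.

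At 4 of the 6 members whose start sites and cold peaks could both be placed, the 300-base promoter window held the searched motif. That motif, GCCATNTT on either strand, is longer than the core ATGGC, which was not searched alone. The sequences around the start sites of these 4 members are shown because the matches lay close to the summits. Also shown are Fars2, with a cold peak and no match in its window, and Wars2, with a match and no peak. All run 5′ to 3′ along the gene, from 100 bases before the annotated start to the base 29 after it, with the start base counted as 0, and come from RefSeq on GRCm38.p6, the assembly that mm10 names. Capitals mark AANATGGC, the reverse complement of the searched motif GCCATNTT.
Aars2 (chr17:45506732-45506861, plus strand): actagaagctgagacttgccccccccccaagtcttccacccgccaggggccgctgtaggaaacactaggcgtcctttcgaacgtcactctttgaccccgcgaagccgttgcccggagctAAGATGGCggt
Lars2 (chr9:123366827-123366956, plus strand): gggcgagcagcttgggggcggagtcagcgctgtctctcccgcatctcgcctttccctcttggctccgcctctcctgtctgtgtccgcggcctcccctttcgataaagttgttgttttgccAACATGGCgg
Yars2 (chr16:16302865-16302994, plus strand): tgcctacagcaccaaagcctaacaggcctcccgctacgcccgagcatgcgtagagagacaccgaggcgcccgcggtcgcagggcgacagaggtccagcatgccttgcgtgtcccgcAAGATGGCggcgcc
Farsa (chr8:84856886-84857015, plus strand): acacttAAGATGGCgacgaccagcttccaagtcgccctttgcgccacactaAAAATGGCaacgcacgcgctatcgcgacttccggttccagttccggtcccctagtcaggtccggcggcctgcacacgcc
Fars2 (chr13:36117543-36117672, plus strand): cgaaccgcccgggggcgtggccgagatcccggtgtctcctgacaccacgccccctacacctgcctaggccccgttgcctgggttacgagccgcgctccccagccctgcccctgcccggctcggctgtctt
Wars2 (chr3:99140990-99141119, plus strand): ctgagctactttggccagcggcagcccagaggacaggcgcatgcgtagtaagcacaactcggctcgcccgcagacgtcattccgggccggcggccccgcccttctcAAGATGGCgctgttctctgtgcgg

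Aars2 encodes the mitochondrial alanyl-tRNA synthetase and carried the strongest of the member peaks. Its summit had 61 fragments after cold (46.7 to 78.4) and 14 at room temperature (7.65 to 23.5). The 2 intervals do not overlap, and the cold pileup was 4.36 times the room temperature one, or 4.16 times after scaling by depth. Over the 163 cold peaks that were also listed at room temperature on a background of at most 10 fragments, the median ratio was 3.09 (quartiles 2.5 and 3.98), and 29 of them had a higher ratio than Aars2. In rank of −log10 q, Aars2 stood at 42 of 1259 in the cold list and at 44 of 165 in the room temperature list. The cold peak (chr17:45506673-45507117) reached 73 bp and 105 bp beyond the room temperature peak (chr17:45506746-45507012) on its 2 sides, and the summits lay 25 bp apart. By the outer ends of the gene table the summits lay 3372 bp (cold) and 3347 bp (room temperature) inside Aars2. By the 2 start sites of the promoter table they lay 46 and 55 bp after the start in the cold list, and 21 and 30 bp after it at room temperature. The peak is thus interior by one annotation and at a start site by the other. The motif match in the printed Aars2 sequence began 19 bases after the start and ended 29 bp from the cold summit.

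Yars2 encodes the mitochondrial tyrosyl-tRNA synthetase. Its cold peak (chr16:16302832-16303270) had 37 fragments (26.1 to 51), with the summit 80 bp inside the gene. The match began 16 bases after the start, 57 bp from the summit. Lars2 encodes the mitochondrial leucyl-tRNA synthetase and had the member peak with the fewest fragments (chr9:123366820-123367153), 25 (16.2 to 36.9). Its summit lay 23 bp inside the gene and fell within the motif match, a distance of 0. In Aars2, Yars2 and Lars2 the match thus lay in the same orientation and within 30 bases after the annotated start. This is not particular to them. Of all matches in the promoter windows of genes with a cold peak, 39.3% lay in this orientation at or after the start. At genes without a cold peak 21.6% did. The part of the window at or after the start makes up 16.7% of its length. That share takes no account of orientation, so it is not a like measure for the 39.3% and 21.6%.

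Farsa encodes the alpha subunit of the cytosolic phenylalanyl-tRNA synthetase. Its cold peak (chr8:84856659-84857222) was the widest of the members, 564 bp, with 41 fragments (29.4 to 55.6). The summit lay 67 bp before the start of the promoter table, between a pair of motif matches that begin 94 and 49 bases before the start, and was 20 and 18 bp from them. The lncRNA gene 1700122E12Rik also reached this summit. Farsb, the gene of the beta subunit of the same enzyme, had no listed peak, and the nearest cold summit was 1273 kb away. Nars, the cytosolic asparaginyl-tRNA synthetase gene, had a cold peak of 34 fragments (23.5 to 47.5) on chromosome 18 (64516476 to 64516751), with the summit 106 bp outside the gene.

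At Fars2 and Sars2 the summit was shared with another protein-coding gene. Fars2 encodes the mitochondrial phenylalanyl-tRNA synthetase and stands beside Lyrm4, which encodes a subunit of the mitochondrial iron-sulfur cluster assembly complex. The peak (chr13:36117698-36118123) had 31 fragments (21.1 to 44). It lay inside Fars2 and began 55 bp after the annotated start, with the summit at 273 bp, so it did not touch the promoter window that was searched. Sequence beyond that window was not analysed here. Sars2 encodes the mitochondrial seryl-tRNA synthetase and stands beside Mrps12, a gene of the small subunit of the mitochondrial ribosome. The shared peak (chr7:28741903-28742247) also had 31 fragments (21.1 to 44), on the highest background of the members, 2.14 fragments, which gave it the lowest fold enrichment, 10.2 against 15.6 to 39.5 at the other 6. The −log10 q of the Sars2 peak was 21.3, below the 26.9 of Lars2, which had fewer fragments. The window of Sars2 held no complete match.

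**Figure D2:**
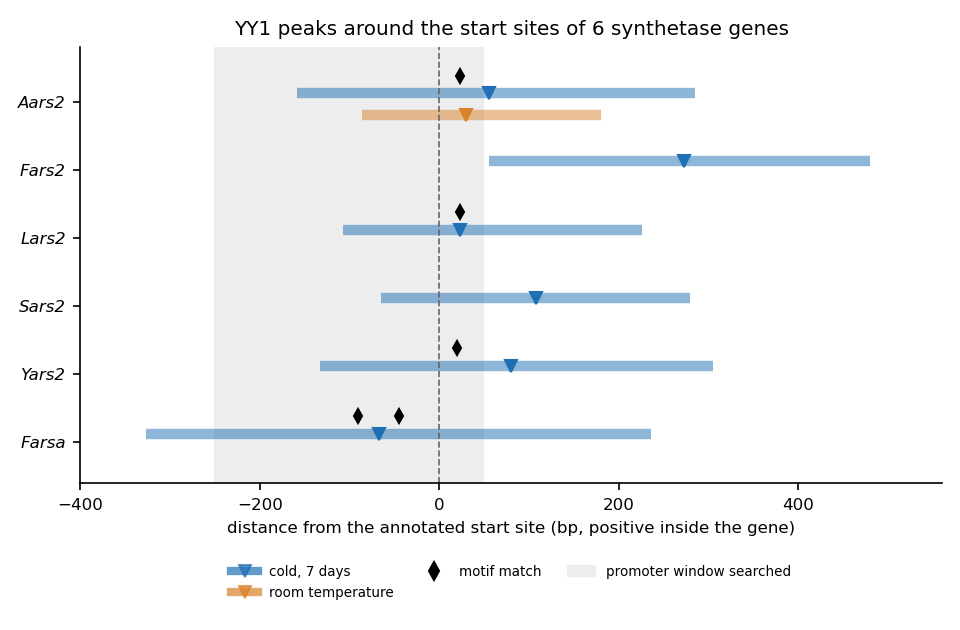
Cold (upper bars) and room temperature (lower bar, Aars2 only) YY1 peaks relative to the annotated start site (horizontal axis, bp) of the 6 members with a start in the promoter table, with triangles at the summits. Diamonds mark motif matches in the gene's own shaded window; in Aars2, Lars2 and Yars2 the match lies just after the start, in Farsa 2 matches lie before it, and the Fars2 peak lies after the window.

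Across the 7 members the cold pileup fell in the order Aars2, Farsa, Yars2, Nars, Fars2 and Sars2 together, and Lars2. The 95% interval of Aars2 lay wholly above those of Fars2, Sars2 and Lars2 and overlapped those of Farsa, Yars2 and Nars. The intervals of the 6 members other than Aars2 all overlapped one another. All 7 pileups stood above the median of the cold list. Lars2, the lowest, was at or above 67.4% of the cold peaks and Aars2 at or above 95.8%. The 6 peaks without a room temperature entry ranged from 25 to 41 fragments. Of the 306 cold peaks with a pileup in that range, 52 (17%) were listed at room temperature, and of the 59 peaks at or above the Aars2 pileup, 44 (74.6%) were. An absent room temperature entry at these 6 genes is not a measured 0.

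**Figure D3:**
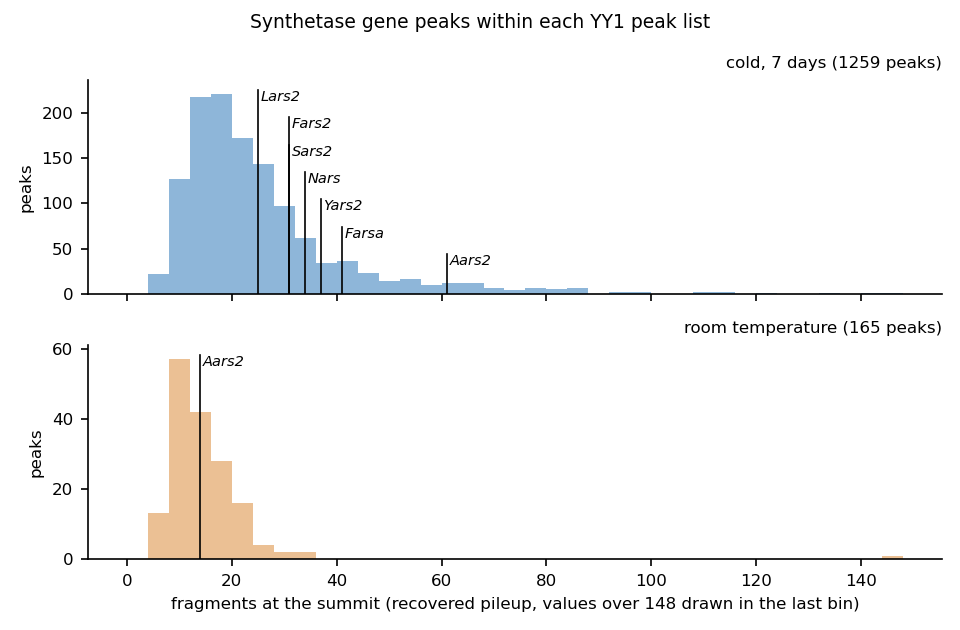
Number of peaks (vertical axis) by pileup in fragments (horizontal axis) in the cold list (upper panel) and the room temperature list (lower panel), with lines at the synthetase gene peaks. The 7 cold lines stand at 25 to 61 fragments, right of the list median of 20, and the Aars2 line at room temperature stands at 14, beside a median of 13.

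The GCCATNTT motif, searched on both strands, was found in the promoter windows of 7.46% of the 17492 protein-coding genes that have one, from 250 bases before to 50 after a start. Of the 36 synthetase genes, 27 had such a window, and 5 held a match. By peak, the counts were 4 of 6 members with a cold peak and 1 of 21 without, Wars2, the mitochondrial tryptophanyl-tRNA synthetase gene. The nearest cold summit to Wars2 was 2510 kb away. The same motif stood in 45.5% of the 1168 protein-coding genes with a cold peak and in 4.74% of the 16324 without, so its presence at members with a peak is shared with other bound genes. All 6 matches at members ran as AANATGGC along the gene. Among all matches at genes with a cold peak 66.7% did, and 53.4% at genes without. A match is a description of the letters and not a shown binding site, and tagging of open chromatin at these starts was not tested.

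The other 29 members had no listed peak in either library. Of these, 18 are cytosolic, Aars, Cars, Dars, Eprs, Farsb, Gars, Hars, Iars, Kars, Lars, Mars1, Qars, Rars, Sars, Tars, Vars, Wars and Yars, and 11 mitochondrial, Cars2, Ears2, Hars2, Iars2, Mars2, Nars2, Pars2, Rars2, Tars2, Vars2 and Wars2. The 1 kb window decided 1 case: a cold summit lay 1201 bp from Qars, the cytosolic glutaminyl-tRNA synthetase gene, and carried 18 fragments (10.7 to 28.4). That peak reached Qrich1. The 2 member summits outside their genes that the window admitted were nearer, at 106 bp (Nars) and 50 bp (Farsa) from the gene end. The next nearest was Hars at 22.1 kb, and the median distance over the 29 genes was 412 kb. Hars and Hars2, the cytosolic and mitochondrial histidyl-tRNA synthetase genes, overlap at their ends and had no peak.

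Synthetase genes were also read by their enzyme class, complex and amino acid. Class II enzymes, 1 of the 2 unrelated folds of the family, had a cold peak at 5 of 17 genes (29.4%) and class I enzymes at 2 of 18 (11.1%), beside 6.42% of all protein-coding genes. Eprs, a fusion of both classes, had none. The 8 synthetases of the cytosolic multisynthetase complex, a large assembly that holds Dars, Eprs, Iars, Kars, Lars, Mars1, Qars and Rars, had 0 peaks. At that share over all genes, 0 of 8 does not set this complex apart. The 7 peaks concerned 6 amino acids. For alanine, leucine, serine and tyrosine the mitochondrial form alone had a peak, for asparagine the cytosolic form alone, and for phenylalanine both did. Another protein-coding gene ended within 1 kb of either end of 16 members, of which 2 had a cold peak (12.5%), and 5 of the other 20 did (25%). Counted at the start site only, among the 27 members with one in the promoter table, the order was the other way, 2 of 8 members with such a neighbour (25%) and 4 of 19 without (21.1%). Over all genes, 24.3% of the 1191 cold summits at a protein-coding gene reached at least 2 of them, and 2 of the 7 member summits did. None of these differences was tested.

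Lists of other tRNA genes were read in the same way. Among 63 genes of tRNA modification, the enzymes that alter tRNA bases after transcription, 14 had a cold peak (22.2%) and 1 a room temperature peak, where 6.42% and 0.864% of all protein-coding genes did. Tyw3, which acts in wybutosine synthesis on phenylalanine tRNA, was in both lists, with 30 fragments after cold (20.2 to 42.8) and 7 at room temperature (2.81 to 14.4), at a summit shared with Cryz. In the same pathway, Tyw1 and Lcmt2 had no listed peak, and Tyw5 had 26 fragments after cold (17 to 38.1), shared with Maip1. The tRNA methyltransferase gene Trmt13 had 18 (10.7 to 28.4), 18802 bp from the nearer end of the gene and shared with Sass6, and the Elongator subunit gene Elp5 had 17 (9.9 to 27.2), shared with Ctdnep1. The other 10 had 10 to 21 fragments.

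Among 17 genes of synthetase partners and tRNA-dependent conversion, 3 had a cold peak (17.6%, beside the same 6.42%) and 0 a room temperature peak. Mitochondrial glutamine tRNA is charged indirectly, through an amidotransferase, and 2 of the 3 genes with a peak encode its subunits, Qrsl1 with 23 fragments (14.6 to 34.5), shared with Rtn4ip1, and Gatb with 12 (6.2 to 21). The scaffold genes of the multisynthetase complex, Aimp1, Aimp2 and Eef1e1, had no listed peak.

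The remaining lists were nearer to the 6.42% of all protein-coding genes. Among 29 genes of tRNA maturation 1 had a cold peak (3.45%), Prorp, the nuclease subunit of mitochondrial RNase P, with 45 fragments (32.8 to 60.2), shared with Ppp2r3c. Among 22 genes of RNA polymerase III and its factors 2 did (9.09%). Gtf3c6 had 76 fragments after cold (59.9 to 95.1) and 18 at room temperature (10.7 to 28.4), and Gtf3c2 had 13 after cold (6.92 to 22.2). Among 30 genes of the amino acid response 2 did (6.67%), Ppp1r15b, which encodes a regulatory subunit of an eIF2alpha phosphatase, with 33 fragments (22.7 to 46.3), and Atf4, the transcription factor known to induce cytosolic synthetase genes when amino acids are short, with 17 (9.9 to 27.2).

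**Figure D4:**
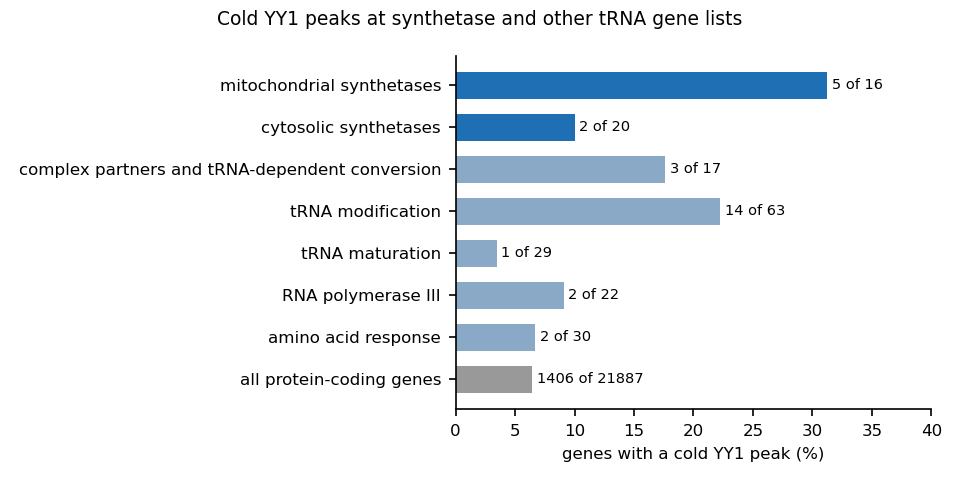
Percentage of genes with a cold YY1 peak (horizontal axis, from 0) in the mitochondrial and cytosolic synthetases, in 5 lists of other tRNA and amino acid genes and among all protein-coding genes, with the counts beside each bar. The mitochondrial synthetases stand at 31.2%, the cytosolic ones at 10% and all protein-coding genes at 6.42%.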

How the data were processed

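YY1 binding was read from 2 peak lists, 1 per library, in mm10 coordinates. The submitters' processing notes name BWA and SAMtools, MACS2 and deepTools, and also DESeq2. The sources used here give no versions or settings and do not describe the control library or the handling of duplicates. The authors deposited for each peak its summit and score, its fold enrichment (a linear ratio to the local background), and the −log10 of its p-value and of its q-value. This score was 10 times the deposited −log10 p, cut to a whole number, in all 1259 cold and 165 room temperature peaks.

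Pileups were the whole numbers that satisfied fold = (pileup + 1) / (background + 1) and the Poisson probability of a larger pileup, within 0.0002 on the −log10 p scale. All peaks of both lists were matched, and 1 cold peak had a second solution. The pileup calculation and the assignment of summits to genes were tested on simulated data. The simulated pileups were made with the same formula, so this test could not show whether the deposited values follow it. Depth was compared through the lowest background divided by the smallest peak width, which assumes like processing of both libraries, and absolute depth is unknown. Overlaps of at least 1 bp counted as shared. Genes came from a RefSeq table of GRCm38.p6 (protein-coding and lncRNA genes), and all 36 names were found in it. Start sites and promoter windows came from a RefSeq promoter table of the same assembly, which held 27 of the 36. Coordinates are 1-based. The analysis used Python 3.11.15, pandas 2.3.3, NumPy 2.4.6, SciPy 1.17.1 and Matplotlib 3.10.9.

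The members, the other gene lists, the motif and the classes were chosen with earlier results of these data known. Named were all members with a peak, the genes sharing their summits, and the 4 strongest genes of each other list by −log10 q. Some items that this rule names are not reported here. No p-value was computed. Alternatives covered the window, the gene end rule, the peak threshold, the overlap and the motif.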

Additional observations from a re-analysis of the deposited data

How the results depend on the processing

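Of 48 counts under an alternative, 42 stayed within 1.5 times the reported count and 6 moved. With only the 165 strongest cold peaks, 1 member kept a cold peak (Aars2), of which 1 was mitochondrial and 0 cytosolic; this setting shortens the list, and 0.905% of all protein-coding genes then had a peak. With gene ends only, 0 members had a room temperature peak, since the Aars2 summit is interior by the gene table. With start sites of the promoter table, chosen after seeing the data, 1 cytosolic member had a cold peak (Farsa), because Nars has no start in that table. With the shorter motif CGCCAT, 11 members held a match in place of 5; 7 of the 11 had no cold peak, and 12.4% of all promoters held it. The longer CGCCATNTT gave 5 again. The count of 7 members with a cold peak ranged from 6 to 8 under the other settings run, with Qars added at 3 kb. No paired analysis was possible because there was 1 library for each condition, and no library could be left out. The single library per condition and its unknown absolute depth limit every count.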
